A study of Caenorhabditis elegans with 9 samples.

Results

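The genes described here encode the nuclear pore and the soluble machinery that carries proteins and RNA through it. They are all the genes of the deposited table whose WormBase symbol is npp-, imb-, ima-, xpo- or ran- followed by a number and whose mean level over all libraries is at least 1 FPKM, a count of fragments scaled to transcript length and to the mapped fragments of the library. This gave 39 members, all protein-coding, of the 8572 genes that reached the same level and the 46245 genes in the table. Of them, 25 are nucleoporin genes (npp-) and 14 are transport factor genes. One further gene with such a name, npp-26, averaged 0.608 FPKM, was not tested and is no member.

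Poly-A RNA was sequenced from germ lines of wild-type Caenorhabditis elegans in 9 libraries, 3 per group. Worms were raised on the E. coli strain OP50 until adulthood and then moved to RNAi bacteria at a set temperature. The first group, iff-1 RNAi 15C, was kept at 15°C on bacteria that silence iff-1, a germline gene for the translation factor eIF5A. The second carried the empty RNAi vector at 20°C (EV 20C), and the third the empty vector at 15°C (EV 15C). On day 6 of adulthood the worms of all groups were washed in buffer with sodium azide and decapitated, and the extruded germ lines were collected. Feeding on RNAi bacteria was thus common to all groups. The labels do not say whether replicates came from separate cultures or how many animals were pooled, and the p-values reflect only the spread among these libraries, which may be technical. In such bulk samples, fewer cells of a type and less RNA per cell cannot be told apart.

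The nuclear pore is a ring of many protein copies set in the nuclear envelope. An outer scaffold, the Y complex, and an inner ring hold up a central channel lined with phenylalanine-glycine repeats. Importins of the beta family bind cargo directly or through the importin alpha adaptors, and exportins carry cargo out. The direction of transport is set by the small GTPase Ran, kept in its GTP form in the nucleus and its GDP form in the cytoplasm. In the worm germ line, germ granules sit over clusters of pores. In oocytes and early embryos, maternal pore proteins and Ran also serve nuclear envelope breakdown, spindle assembly and the rebuilding of nuclei.

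Depth was estimated from the median of low values of FPKM times length within a window set alike for all libraries. This gave about 34000000 to 39600000 fragments each. The window bounds the estimate, so it cannot show whether the libraries were of similar depth. At the estimated depth the member with the fewest fragments in a library would have about 3498, which would leave a counting error of at most 1.69%. The RNAi target iff-1 lay between 37.4 and 104 FPKM in the RNAi libraries and between 2442 and 2677 FPKM in the vector libraries. All 10 germ line markers were tested, and their summed level was 5366 to 5519 FPKM in iff-1 RNAi 15C, 5365 to 5457 in EV 20C and 5461 to 5483 in EV 15C. The sum hides changes of single markers in both directions. Their log2 fold changes against EV 15C ran from -0.41 to 0.21 in iff-1 RNAi 15C and from -0.36 to 0.22 in EV 20C. By the test described below, 2 were called higher and 2 lower in iff-1 RNAi 15C, beside 16% and 15.0% of all tested genes. In EV 20C, 3 were called higher and 2 lower, beside 19.3% and 8.69%. Between iff-1 RNAi 15C and EV 20C, 3 were higher and 4 lower, beside 20.5% and 28.4%. Sums of other markers hold every listed gene, tested or not. These were 6 muscle genes (5 tested), 8 intestine (5), 6 neuron (5), 6 somatic gonad (3) and 6 cuticle genes (3). In iff-1 RNAi 15C, muscle markers summed to 87.0 to 109 FPKM, intestine markers to 87.8 to 221 and neuron markers to 229 to 238. Somatic gonad markers in that group summed to 78.9 to 94.99 FPKM and cuticle markers to 9.44 to 19.2. In EV 20C, muscle markers summed to 70.8 to 113 FPKM, intestine markers to 59.7 to 122 and neuron markers to 257 to 267. Somatic gonad markers in that group summed to 64.03 to 115 FPKM and cuticle markers to 3.53 to 8.97. In EV 15C, muscle markers summed to 116 to 144 FPKM, intestine markers to 71.8 to 237 and neuron markers to 217 to 219.8. Somatic gonad markers in that group summed to 84.5 to 111 FPKM and cuticle markers to 9.82 to 18.4. In the neuron sum 1 gene, snb-1, held most of the level, with means of 209 FPKM in iff-1 RNAi 15C, 239 in EV 20C and 198 in EV 15C. Pore genes are used by every cell, and the part of such cells in the values below was not tested.

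All 39 genes were well expressed. Their mean levels ran from 46.6 to 1078 FPKM with a median of 97.9, and each lay above the median of all tested genes, 38.2 FPKM. FPKM is a level per length, so genes can be set side by side. The GTPase gene ran-1 was far above the rest, with 1074, 1085 and 1102 FPKM in iff-1 RNAi 15C, 1118, 1075 and 1115 in EV 20C and 1042, 1048 and 1041 in EV 15C. It ranked 129 among the tested genes. The importin alpha gene ima-2 followed, with 583, 576 and 587 FPKM in iff-1 RNAi 15C, 612, 609.7 and 617 in EV 20C and 581, 587 and 607 in EV 15C. The third, npp-9, encodes the counterpart of the vertebrate cytoplasmic filament protein RanBP2 and had 399, 410.3 and 402 FPKM in iff-1 RNAi 15C, 374, 421 and 399 in EV 20C and 406, 408 and 422 in EV 15C. In none of these 3 genes did a group mean depart from another by more than 5.62%.

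The lowest members were scaffold and cytoplasmic-side nucleoporins. The Y complex gene npp-15, the Nup133 homologue, had 40.0, 39.2 and 42.2 FPKM in iff-1 RNAi 15C, 48.4, 53.4 and 51.3 in EV 20C and 46.8, 49.1 and 49.3 in EV 15C. The Nup88 homologue npp-24 had 53.3, 53.8 and 53.6 FPKM in iff-1 RNAi 15C, 54.99, 52.7 and 55.2 in EV 20C and 52.8, 49.3 and 50.02 in EV 15C. Next came npp-6, the Nup160 homologue, with 50.9, 49.7 and 51.9 FPKM in iff-1 RNAi 15C, 50.7, 56.8 and 56.7 in EV 20C and 56.1, 55.3 and 58.1 in EV 15C. The 8 Y complex genes thus spread from 46.6 to 159.9 FPKM, although their proteins sit in one complex. The highest of them was npp-2, the Nup85 homologue. The 4 inner ring genes ran from 73.6 to 151 FPKM and the 3 channel genes, npp-1, npp-4 and npp-11, lay within 84.2 to 86.8 FPKM.

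**Figure D1:**
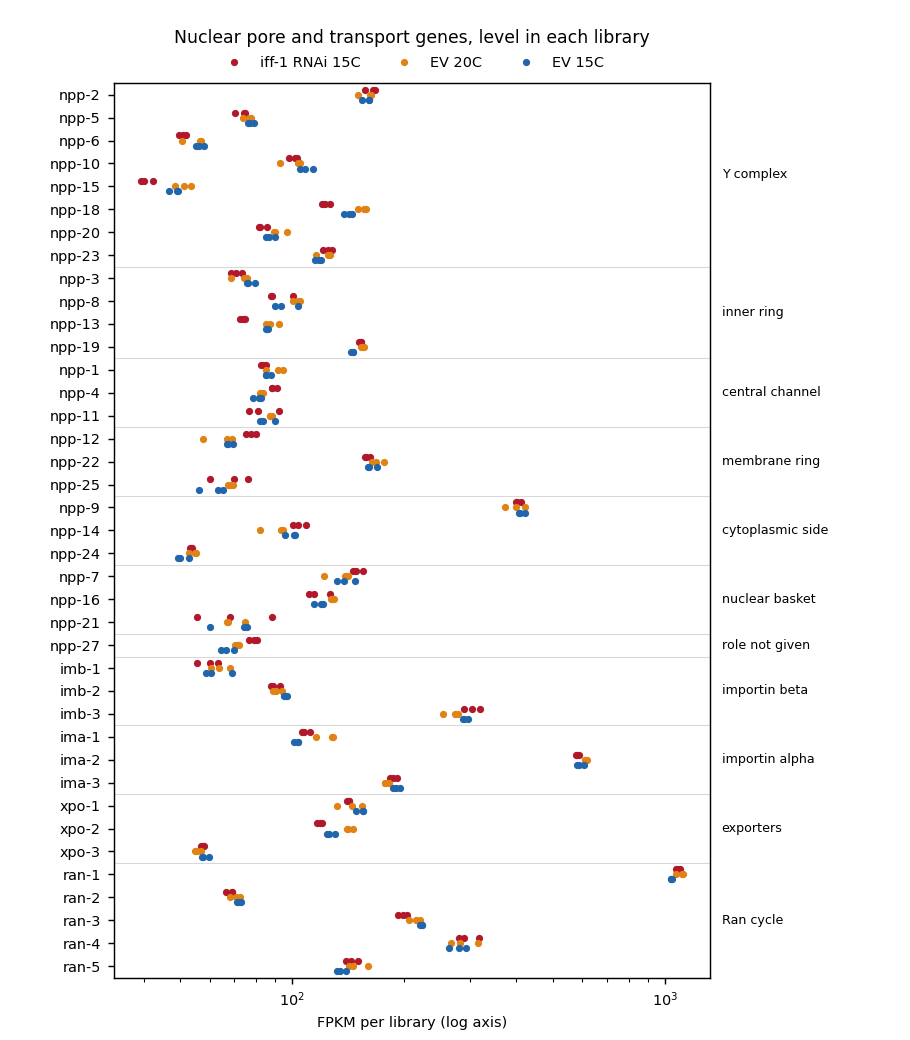
FPKM of each member in each library on a log axis, with genes grouped by their place in the pore or in transport; every dot is 1 library and colours mark the groups, 3 libraries each. The levels run from 46.6 (npp-15) to 1078 FPKM (ran-1) in mean, and on an axis this wide the dots of a gene lie close together. Even so, iff-1 RNAi 15C and EV 15C did not overlap for 21 of 39 members, beside 49.7% of all tested genes. The same held for 17 members between EV 20C and EV 15C, beside 45.4%, and 20 between iff-1 RNAi 15C and EV 20C, beside 56.5%.

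Within groups these genes varied little. The median coefficient of variation of a member was 2.71% in iff-1 RNAi 15C, 3.98% in EV 20C and 2.54% in EV 15C. Over all tested genes the medians were 5.57% in iff-1 RNAi 15C, 6.43% in EV 20C and 4.49% in EV 15C. Below these medians lay 32 of 39 members in iff-1 RNAi 15C, 33 in EV 20C and 32 in EV 15C. All members lie above the median level of the tested genes, and precision grows with level. Whether their spread differs from that of genes of like level was not tested. The widest spread was in npp-21, the homologue of the basket protein Tpr and the longest member with 6109 exonic bases. It had 55.6, 68.0 and 88.3 FPKM in iff-1 RNAi 15C, 67.3, 67.0 and 74.6 in EV 20C and 60.3, 75.8 and 74.2 in EV 15C. Its spread within iff-1 RNAi 15C, 23.4%, was the largest of any member in any group.

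One library stood apart by gene length. Exonic lengths here come from the WBcel235 annotation of Ensembl, and 18 of the members are longer than 3000 bases. In EV 20C replicate 1 these long members lay a median of -0.12 on the log2 scale from the mean of the other EV 20C libraries, against -0.00443 for the shorter members. In the same library the 1082 tested protein-coding genes of that length had a median of -0.13, and the 2346 genes under 1000 bases had one of 0.07. In the other libraries the long members deviated by -0.0318 to 0.0896. Long members such as npp-12, npp-14, npp-10, npp-7 and imb-3 were lowest in EV 20C replicate 1 among the EV 20C libraries. The long members imb-2, npp-8, npp-21 and xpo-2 were not, and npp-8 was highest in that library. Values without that library, and values after a trend with length was removed from every library, are given beside the calls they change. The part of length in the results was not otherwise tested.

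**Figure D2:**
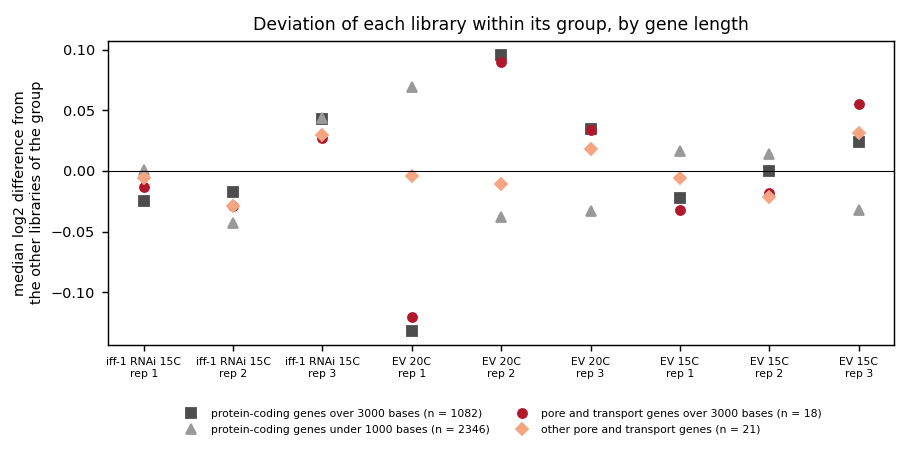
Median difference of each library from the mean of the other libraries of its group, on the log2(FPKM + 1) scale, for pore and transport genes above and up to 3000 exonic bases and for all long and short protein-coding genes. EV 20C replicate 1 sits at -0.12 for long members and -0.13 for all long genes, lower than any other library.

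Between conditions the members differed little in level. The largest difference in mean FPKM of any member was 17.6% between iff-1 RNAi 15C and EV 15C, 20.8% between EV 20C and EV 15C and 20.6% between iff-1 RNAi 15C and EV 20C. Differences were tested with limma on log2(FPKM + 1) over all 8572 genes, and calls were made at an adjusted p (Benjamini-Hochberg) under 0.05. For all 39 members the 95% interval of the log2 fold change stayed within 0.5 on either side of 0 in each comparison. The same held for fewer of all tested genes: 69.3% for iff-1 RNAi 15C against EV 15C, 68.9% at EV 20C relative to EV 15C, and 59.3% between iff-1 RNAi 15C and EV 20C. Precision grows with level, and among the 3896 genes at least as high as the lowest member the shares were 92.1% for iff-1 RNAi 15C against EV 15C, 94.99% at EV 20C relative to EV 15C, and 87.9% between iff-1 RNAi 15C and EV 20C. Whether the pore genes differ from these in stability was not tested.

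**Figure D3:**
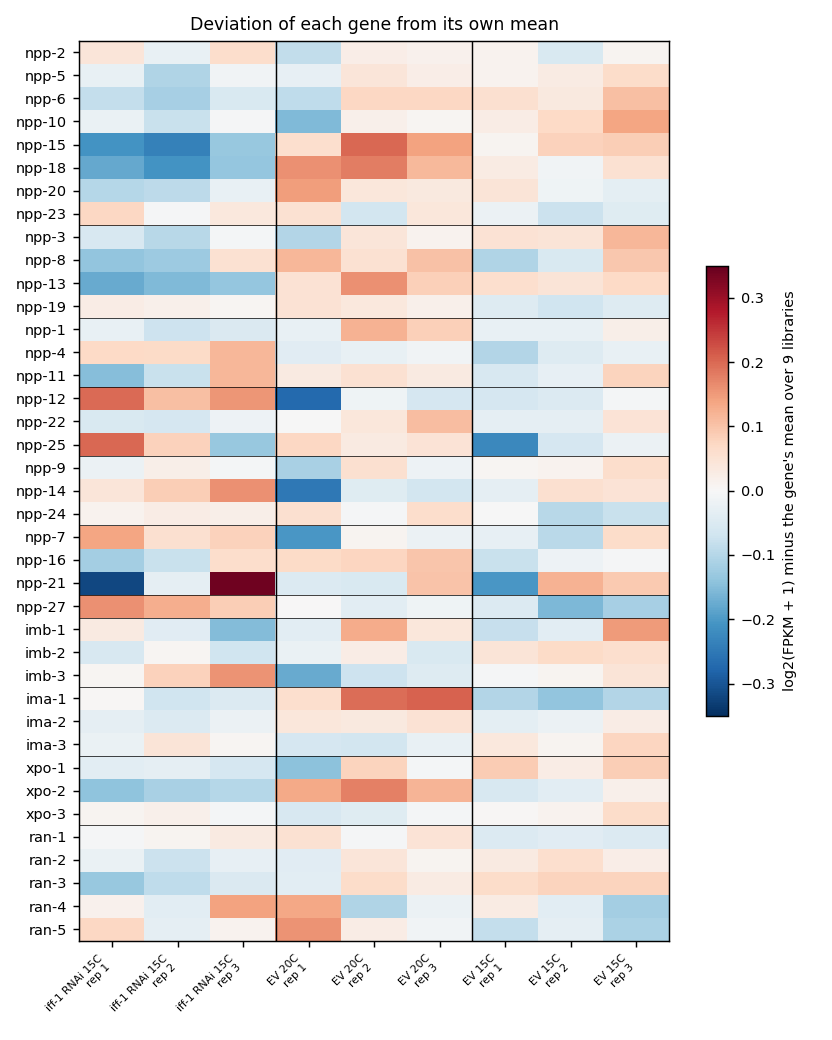
Log2(FPKM + 1) of each member in each library minus its own mean over the 9 libraries, with groups separated by vertical lines and gene groups by horizontal ones. The colour scale ends at 0.35 on either side; npp-13, npp-15 and npp-18 are lowest in the iff-1 RNAi 15C libraries, ima-1 and xpo-2 highest in the EV 20C libraries, and npp-21 varies between replicates.

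Germ lines under iff-1 RNAi were set against those of the vector at the same temperature, and the series title ties that group to reduced proliferation of germ stem cells. Under iff-1 RNAi, 7 members were called lower and 4 higher. That is 17.9% and 10.3% of the members, beside 15.0% and 16% of all tested genes. Among the genes at least as high as the lowest member, 19.5% were called lower and 23.4% higher. Called in either direction were 11 members (28.2%), beside 31.0% of all genes and 42.8% of the 3896 genes at least as high as the lowest member. The groups did not overlap for 21 members, or 53.8%, beside 49.7% of all genes. The members' median log2 fold change was -0.03, and that of all genes 0.01. The 18 members above 3000 exonic bases had a median of -0.07, with 5 called lower and 1 higher. The other 21 had a median of 0.04, with 2 called lower and 3 higher. Over all tested protein-coding genes the medians were -0.05 above 3000 bases and 0.04 under 1000 bases. Called lower were 18.5% of these long genes and 11.3% of the short ones, and called higher 9.70% and 16.1%. The calls that held in every alternative run were falls of npp-13, npp-15, npp-18 and ran-3 and a rise of npp-27, differences of 10.8% to 17.6% in mean FPKM.

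In the Y complex, 3 of 8 genes fell under iff-1 RNAi, npp-15, npp-18 and npp-6, beside 15.0% of all genes. Of the genes at least as high as the lowest member, 19.5% were called lower. The Nup133 homologue npp-15 averaged 40.5 ± 1.55 FPKM in iff-1 RNAi 15C, against 48.4 ± 1.43 in EV 15C (SD, n = 3 each; log2 -0.25, SE 0.05, adjusted p = 0.00517). It lies on chromosome III, 7929043 to 7933055, plus strand in WBcel235. All RNAi libraries were below all vector libraries at 15°C, as the values given with the lowest members show. The gene npp-18 encodes the homologue of Seh1, a small beta-propeller of the same complex. It had 122.9, 120.3 and 127 FPKM in iff-1 RNAi 15C, 156, 158 and 151 in EV 20C and 142, 138 and 145 in EV 15C. The RNAi libraries were the lowest and did not overlap with either vector group (log2 -0.20, SE 0.03, adjusted p = 0.00238). The gene lies on chromosome III, 13296853 to 13298993, plus strand. The third, npp-6, was lower by 10.1% (log2 -0.15, SE 0.05, adjusted p = 0.0451), a call that was lost in 11 of the 18 alternatives. The other subunits had log2 fold changes of -0.11 (npp-10, Nup98 and Nup96), -0.08 (npp-5, Nup107), -0.07 (npp-20, Sec13), 0.04 (npp-2) and 0.08 (npp-23, Nup43), and none passed the test. The pore assembly factor mel-28, whose ELYS homologue tethers the Y complex to chromatin, had 66.9 FPKM in iff-1 RNAi 15C and 73.5 in EV 15C and did not pass either (adjusted p = 0.188).

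Of the 4 inner ring genes 1 fell and 1 rose under iff-1 RNAi, beside 15.0% and 16% of all tested genes. The Nup93 homologue npp-13, which links the ring to the channel, had 72.7, 73.9 and 74.8 FPKM in iff-1 RNAi 15C, 85.3, 92.2 and 87.3 in EV 20C and 85.7, 84.9 and 86.4 in EV 15C. Every RNAi library was below every vector library, and the adjusted p against EV 15C was the smallest of any member (log2 -0.21, SE 0.03, adjusted p = 0.00226). The Nup53 homologue npp-19 rose by 4.96%, with 154, 153 and 151 FPKM in iff-1 RNAi 15C, 156, 155 and 153 in EV 20C and 146, 144 and 146 in EV 15C (adjusted p = 0.0420). Here EV 15C was the lowest group. The large ring proteins npp-3 (Nup205) and npp-8 (Nup155) had log2 fold changes of -0.12 and -0.05 without passing.

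The largest rise under iff-1 RNAi was in npp-27, for which no role is given here, with 80.6, 78.7 and 76.4 FPKM in iff-1 RNAi 15C, 72.1, 70.1 and 71.2 in EV 20C and 69.6, 64.5 and 66.3 in EV 15C. The RNAi libraries were the highest and did not overlap with the others (log2 0.23, SE 0.04, adjusted p = 0.00237). This gene lies on chromosome IV, 7907017 to 7910247, minus strand and shares 79 exonic bases with C49H3.6 on the other strand, so the values of the pair cannot be fully separated where counting ignored strand. The channel gene npp-4, the Nup58 homologue, had 88.3, 88.1 and 91.2 FPKM in iff-1 RNAi 15C, 81.7, 82.6 and 83.3 in EV 20C and 78.3, 81.5 and 82.6 in EV 15C (log2 0.14, SE 0.03, adjusted p = 0.00848). Its channel partners npp-1 (Nup54) and npp-11 (Nup62) had log2 fold changes of -0.04 and -0.03 and were not called. The membrane-spanning gp210 homologue npp-12 was higher by 14.3% (log2 0.19, SE 0.06, adjusted p = 0.0485), with 80.1, 75.0 and 77.6 FPKM in iff-1 RNAi 15C, 57.6, 68.9 and 66.9 in EV 20C and 66.9, 67.4 and 69.4 in EV 15C. The other membrane genes, npp-22 (NDC1) and npp-25 (TMEM33), were at -0.04 and 0.15. In the cytoplasmic genes npp-9, npp-14 and npp-24 and the basket genes npp-7, npp-16 and npp-21, log2 fold changes lay between -0.03 and 0.11. limma called 0 of these 6, beside 31.0% of all tested genes, and 0 of the 6 had an unadjusted p under 0.05.

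Among transport factors, 3 of 14 were called under iff-1 RNAi, all lower, beside 31.0% of all genes called and 15.0% called lower. For the genes at least as high as the lowest member, these shares were 42.8% and 19.5%. Of these calls, that of imb-2 was lost in 9 of the 18 alternatives and that of xpo-2 in 9 of the 18 alternatives. The nucleotide exchange factor of Ran, ran-3 (RCC1), which loads Ran with GTP on chromatin, had 192, 198 and 203 FPKM in iff-1 RNAi 15C, 206, 221 and 215 in EV 20C and 220.4, 223 and 223 in EV 15C. The RNAi libraries lay below all vector libraries (log2 -0.16, SE 0.03, adjusted p = 0.00624). The other genes of the Ran cycle were not called. The GTPase activating gene ran-2 (RanGAP) had 69.0, 66.5 and 68.8 FPKM in iff-1 RNAi 15C, 68.3, 72.3 and 70.7 in EV 20C and 71.8, 73.1 and 71.3 in EV 15C, with a log2 fold change of -0.08 under RNAi. The carrier of Ran itself, ran-4 (NTF2), had 290.1, 280.0 and 317 FPKM in iff-1 RNAi 15C, 316, 267 and 283 in EV 20C and 293, 279.8 and 264 in EV 15C, and all groups overlapped. For ran-5 the values were 150.3, 139.7 and 144 FPKM in iff-1 RNAi 15C, 159.6, 145 and 142 in EV 20C and 135, 139.9 and 132 in EV 15C, and iff-1 RNAi 15C overlapped with EV 15C (adjusted p = 0.176 under RNAi). The GTPase gene ran-1 itself differed by 0.06 (adjusted p = 0.141).

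Of the importin and exportin genes, imb-2 and xpo-2 were called. The transportin gene imb-2, which imports RNA-binding proteins, was lower by 6.55% (log2 -0.10, adjusted p = 0.0466), while imb-3, the importin 5 homologue, had 0.06. The importin beta gene imb-1 had 63.4, 60.3 and 55.7 FPKM in iff-1 RNAi 15C, 60.4, 67.9 and 63.8 in EV 20C and 58.6, 60.4 and 68.8 in EV 15C, and no group stood apart. The exporter gene xpo-2, the CAS homologue that returns importin alpha to the cytoplasm, had 117, 118.98 and 120.0 FPKM in iff-1 RNAi 15C, 141, 146 and 139.96 in EV 20C and 124, 125 and 130.3 in EV 15C. It was lowest under RNAi (log2 -0.09, SE 0.03, adjusted p = 0.0398) and highest at 20°C, with no overlap between any of the groups. The main protein exporter xpo-1 (CRM1) had 142, 142.5 and 139.98 FPKM in iff-1 RNAi 15C, 132, 154 and 145 in EV 20C and 155, 148 and 155 in EV 15C (adjusted p = 0.137). The tRNA exporter gene xpo-3 had 57.5, 57.9 and 56.8 FPKM in iff-1 RNAi 15C, 54.9, 55.4 and 56.8 in EV 20C and 57.3, 57.6 and 59.8 in EV 15C, and differed by -0.02 under RNAi. Among the importin alpha genes the log2 fold changes were 0.08 (ima-1), -0.02 (ima-2) and -0.03 (ima-3). Of these 3, limma called 0, beside 31.0% of all tested genes, and 0 of the 3 had an unadjusted p under 0.05.

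**Figure D4:**
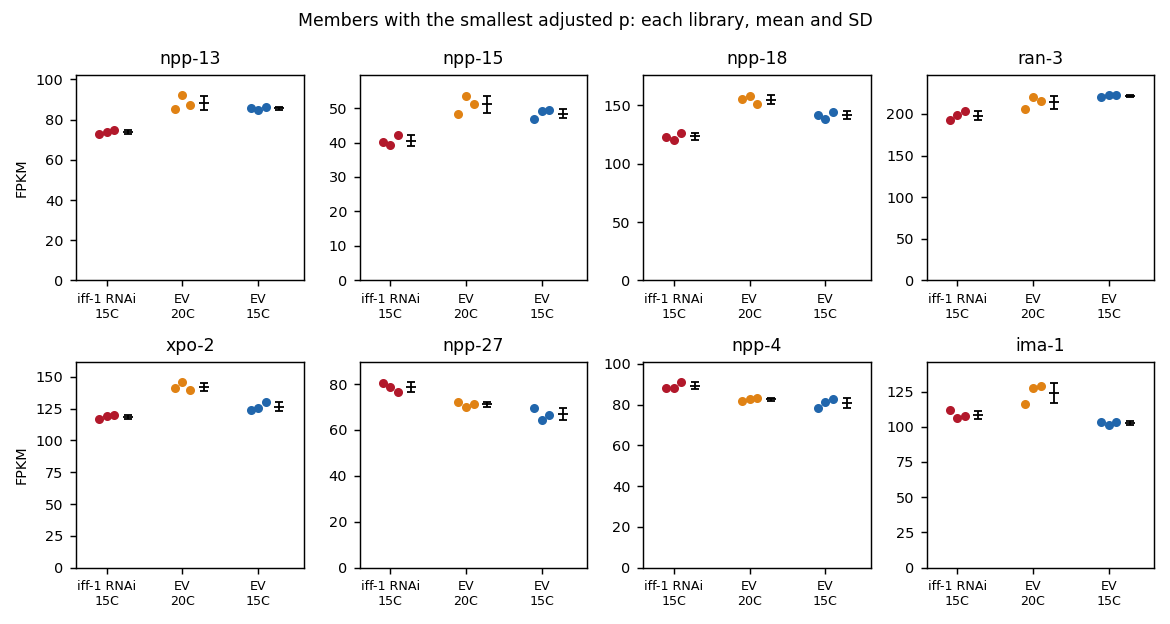
FPKM of the 8 members with the smallest adjusted p in the comparisons with EV 15C, by library; the bar beside the dots is the mean and SD of 3 libraries, and each axis starts at 0. The falls of npp-13, npp-15, npp-18 and ran-3 and the rise of npp-27 under iff-1 RNAi, and the rises of ima-1 and xpo-2 at 20°C, are separate from EV 15C yet small against the level of each gene.

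The calls of npp-13, npp-15, npp-18, npp-27 and ran-3 under iff-1 RNAi held in each alternative that was run, including each of the 9 libraries left out. Those of npp-6 and npp-12 were lost without any 1 of the EV 15C or iff-1 RNAi 15C libraries or without EV 20C replicate 3 (adjusted p = 0.0558 to 0.132 for npp-6 and 0.0639 to 0.147 for npp-12). That of npp-19 was lost without any EV 15C library, EV 20C replicate 3 or iff-1 RNAi 15C replicate 1 or 2 (0.0574 to 0.124). That of imb-2 was lost without any EV 15C library, EV 20C replicate 3 or iff-1 RNAi 15C replicate 1 or 3 (0.0551 to 0.121). That of xpo-2 was lost without replicate 2 or 3 of EV 15C, replicate 3 of EV 20C or iff-1 RNAi 15C replicate 1 or 2 (0.0557 to 0.124). Falls of npp-3, npp-10 and xpo-1 were called without EV 20C replicate 1 (adjusted p = 0.0270, 0.0404 and 0.0271), and a rise of npp-25 without iff-1 RNAi 15C replicate 3 (0.0288). Calls fell to 4 lower and 2 higher without replicate 2 or 3 of EV 15C, replicate 3 of EV 20C or replicate 1 of iff-1 RNAi 15C. Rises also numbered 2 without EV 15C replicate 1 or iff-1 RNAi 15C replicate 2. Under median ratio scaling 12 members were lower and 1 higher, and of all calls 32.7% were higher, against 51.5% in the FPKM as deposited. Scaled without the 10 highest genes, 4 were lower and 1 higher, and npp-4 was called under neither scaling (adjusted p = 0.0801 and 0.0632). With the length trend removed, imb-3, npp-7 and npp-14 were called higher (adjusted p = 0.0262, 0.0243 and 0.0134) and npp-20 lower (0.0386). The calls of imb-2 (adjusted p = 0.206), xpo-2 (0.123) and npp-19 (0.0925) were then lost. That of npp-19 was also lost at a pseudocount of 0.1 (0.05003) and under median ratio scaling, where its log2 fold change was 0.0184 (0.671).

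EV 20C was set against EV 15C, which addresses how temperature changes the adult germ line. At 20°C, 4 members were called higher, ima-1, xpo-2, npp-18 and npp-19, and 1 was called lower, ima-3. These are 10.3% and 2.56% of the members, beside 19.3% and 8.69% of all tested genes. Among the genes at least as high as the lowest member, 24.3% were called higher and 9.19% lower. In either direction 12.8% of members were called, beside 28% of all genes and 33.5% of the genes at least as high as the lowest member. The groups did not overlap for 17 members (43.6%), beside 45.4% of all genes. The members' median log2 fold change was 0.04 and that of all genes 0.03. Members above 3000 exonic bases had a median of -0.05 and those up to that length 0.07. Over all tested protein-coding genes the medians were -0.0016 above 3000 bases and 0.02 under 1000 bases.

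Of the 3 importin alpha genes, ima-1 rose and ima-3 fell at 20°C, and of all tested genes 19.3% rose and 8.69% fell. These adaptors bind nuclear localization signals, and in the worm ima-1 and ima-2 are known mainly from the germ line while ima-3 is also used in the soma. The gene ima-1 had 112, 106 and 108 FPKM in iff-1 RNAi 15C, 116, 128 and 129 in EV 20C and 104, 101 and 104 in EV 15C. Every EV 20C library was above every EV 15C library, and its rise of 20.8% was the largest of any member at 20°C (log2 0.27, SE 0.04, adjusted p = 0.00316). It lies on chromosome V, 11239675 to 11241792, plus strand. The gene ima-3 had 183, 191 and 186 FPKM in iff-1 RNAi 15C, 178, 177 and 182 in EV 20C and 190.2, 187 and 195 in EV 15C, and was lower at 20°C by 6.09% (log2 -0.09, SE 0.03, adjusted p = 0.0442). The most abundant, ima-2, did not pass (log2 0.05, adjusted p = 0.160), although its groups did not overlap. By mean level ima-2 stood at 613 FPKM in EV 20C and 592 in EV 15C and in both exceeded ima-1 and ima-3 combined.

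The recycling exporter of these adaptors, xpo-2, was higher at 20°C too. Its mean was 142 ± 2.995 FPKM in EV 20C, against 127 ± 3.35 in EV 15C (SD, n = 3 each; log2 0.17, SE 0.03, adjusted p = 0.00467). Among nucleoporins 2 of 25 (8%) were called, both higher, beside 28% of all tested genes called and 19.3% called higher. The Y complex gene npp-18 averaged 155 ± 3.64 FPKM in EV 20C and 142 ± 3.32 in EV 15C (log2 0.13, SE 0.03, adjusted p = 0.0175). The inner ring gene npp-19 averaged 154 ± 1.75 FPKM in EV 20C and 145 ± 1.40 in EV 15C (log2 0.09, SE 0.02, adjusted p = 0.0191). In both genes the EV 20C libraries were above all EV 15C libraries. In an exact two-sided permutation test of 3 against 3 libraries, each member without overlap gave p = 0.1, the smallest that design allows.

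The long genes npp-14, npp-10 and imb-3 had negative fold changes at 20°C that did not pass. The Nup214 homologue npp-14, on the cytoplasmic side, had 101, 104 and 109 FPKM in iff-1 RNAi 15C, 81.9, 94.8 and 93.3 in EV 20C and 95.5, 102 and 101 in EV 15C (log2 -0.14 at 20°C, adjusted p = 0.0970). EV 20C replicate 1 was the lowest library for it. The polyprotein gene npp-10 had 102, 97.9 and 103 FPKM in iff-1 RNAi 15C, 92.7, 105 and 104 in EV 20C and 105, 108 and 114 in EV 15C (log2 -0.12, adjusted p = 0.110). The importin 5 gene imb-3 had 289, 304 and 320.3 FPKM in iff-1 RNAi 15C, 254, 273 and 279 in EV 20C and 287, 289 and 296 in EV 15C (log2 -0.11, adjusted p = 0.0926). All 3 are longer than 3000 bases, the length class in which EV 20C replicate 1 was low. In each of them EV 20C replicates 2 and 3 were also below every EV 15C library. The part of that library in these differences was not tested. With the length trend removed, an alternative chosen after the data were seen, the calls at 20°C were 2 higher and 5 lower, against 4 and 1. The falls were then ima-3, imb-3, npp-10, npp-14 and ran-3, and 52.6% of all calls were higher, against 69.0%. The log2 fold changes were then -0.14 for npp-14, -0.10 for npp-10 and -0.12 for imb-3 (adjusted p = 0.00994, 0.0433 and 0.0180).

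**Figure D5:**
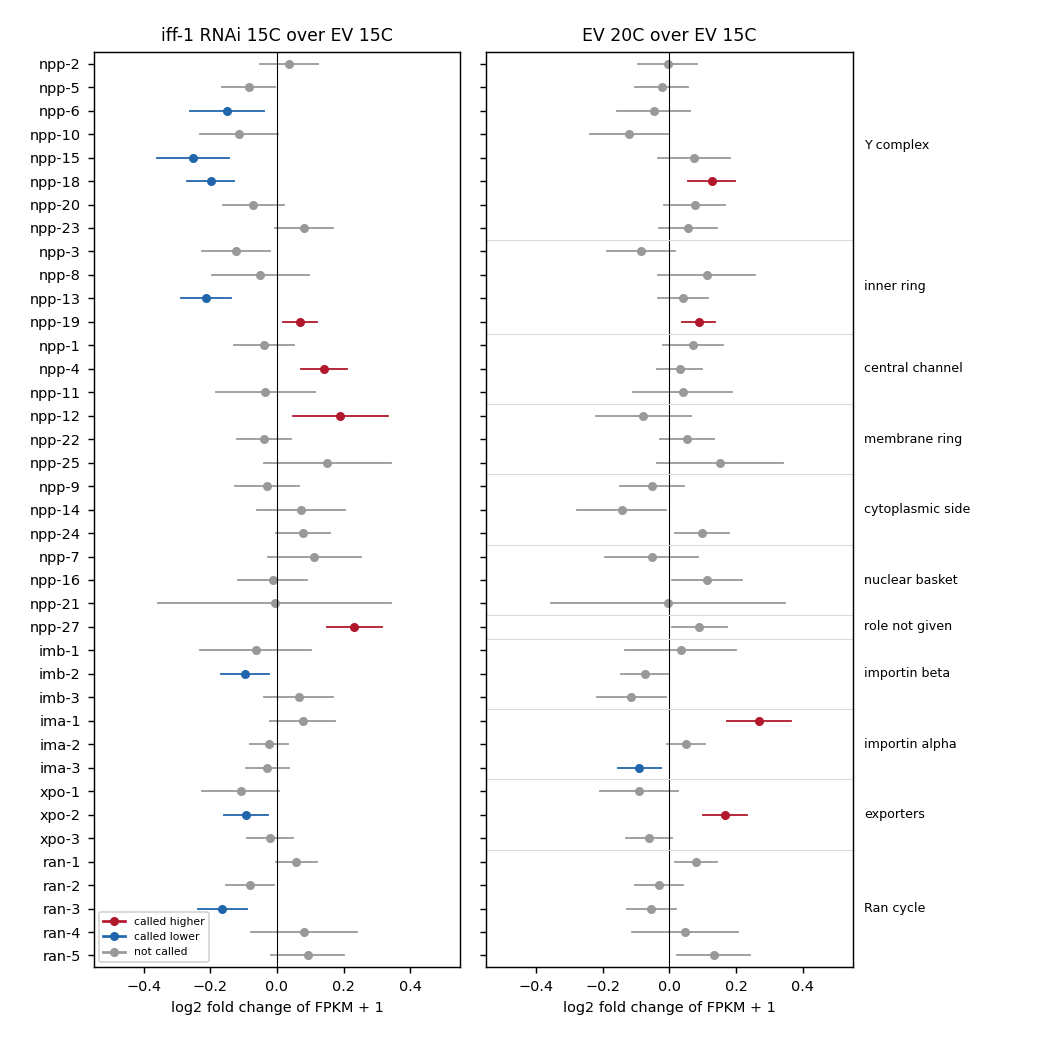
Log2 fold change of each member on the log2(FPKM + 1) scale with its 95% interval, for iff-1 RNAi 15C over EV 15C (left) and EV 20C over EV 15C (right); both use the same 3 EV 15C libraries. Red and blue mark calls at an adjusted p under 0.05; all intervals lie within 0.5 of 0, and the widest are those of npp-21.

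The calls of ima-1 and xpo-2 at 20°C held in each alternative that was run. That of ima-3 was lost when any 1 vector library of either temperature, or iff-1 RNAi 15C replicate 3, was left out (adjusted p = 0.0527 to 0.127), and limma then called 0 members lower, with 5 lower at an unadjusted p under 0.05 with all libraries in. That of npp-18 was lost without replicate 1 or 2 of EV 15C or replicate 2 of EV 20C (up to 0.0633), and that of npp-19 without EV 15C replicate 2 (0.0667), which left 2 members called higher. The call of npp-19 was also lost under median ratio scaling (log2 0.07, adjusted p = 0.106), quantile normalization (0.04, 0.248) and removal of the length trend (0.03, 0.408). That of npp-18 was also lost under quantile normalization (adjusted p = 0.0951) and removal of the length trend (0.101). A rise of npp-1 was called without EV 20C replicate 1 (log2 0.11, adjusted p = 0.0271). Rises were also called for npp-16 without iff-1 RNAi 15C replicate 3 (0.0226) and ran-1 without EV 20C replicate 2 (0.0357). The rise of npp-16 was called in the 2 compared groups alone too (0.0305). Those of ran-1 and ran-5 were called when scaled without the 10 highest genes (0.0275 and 0.0131). Under quantile normalization 2 members were higher and 4 lower, and 55.3% of all calls were higher. Scaled without the 10 highest genes, 6 were higher and 0 lower. Over all genes, leaving out replicate 1 of EV 15C left 1534 calls, replicate 2 of the same group 1514 and replicate 3 of EV 20C 1548, against 2401.

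Both comparisons share the EV 15C libraries, so their difference was read from iff-1 RNAi 15C against EV 20C directly, where treatment and temperature differ at once. Here 10 members were called lower and 5 higher in iff-1 RNAi 15C, or 25.6% and 12.8%, beside 28.4% and 20.5% of all genes. Among the genes at least as high as the lowest member, 31.5% were called lower and 21.1% higher. In either direction 38.5% of members were called, beside 48.9% of all genes and 52.6% of the 3896 genes at least as high as the lowest member, and the groups did not overlap for 20 members (51.3%), beside 56.5%. The Y complex genes npp-18 and npp-15 differed most. Averages for npp-18 were 123.2 ± 3.16 FPKM in iff-1 RNAi 15C and 155 ± 3.64 in EV 20C (log2 -0.33, SE 0.03, adjusted p = 1.21e-04). Those of npp-15 were 40.5 ± 1.55 FPKM in iff-1 RNAi 15C and 51.0 ± 2.53 in EV 20C (log2 -0.33, SE 0.05, adjusted p = 7.72e-04). The exporter gene xpo-2 averaged 118.5 ± 1.69 FPKM in iff-1 RNAi 15C and 142 ± 2.995 in EV 20C (log2 -0.26, SE 0.03, adjusted p = 2.38e-04), and npp-13 averaged 73.8 ± 1.07 FPKM in iff-1 RNAi 15C and 88.3 ± 3.52 in EV 20C (log2 -0.25, SE 0.03, adjusted p = 4.61e-04). Together with ima-1 (log2 -0.19, SE 0.04, adjusted p = 0.00574), these 5 kept their calls in each alternative that was run.

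On the other side, npp-12 (log2 0.27), npp-14 (0.22), imb-3 (0.18), npp-27 (0.14) and npp-4 (0.11) were higher in iff-1 RNAi 15C than in EV 20C. Scaled without the 10 highest genes, limma called 0 of them, with adjusted p = 0.0550 for npp-12 and 0.263 for npp-4 as the ends of the range. The remaining falls were in npp-20 (-0.15), npp-16 (-0.13), ran-3 (-0.11), npp-1 (-0.11) and ima-2 (-0.07). The sign of ima-2 turned under quantile normalization (log2 0.04). Under median ratio scaling npp-4 and npp-27 were not called (adjusted p = 0.0988 and 0.0593). Without iff-1 RNAi 15C replicate 1 or 2, 5 members were called lower, and without EV 20C replicate 2 or 3, 6. The call of npp-20 was lost without iff-1 RNAi 15C replicate 1 or 2 (0.0513 to 0.0525), and that of ran-3 without those libraries or EV 20C replicate 2 or 3 (0.0508 to 0.0690). The call of ima-2 was lost without these 4 libraries or EV 15C replicate 2 (0.0543 to 0.107). That of npp-16 was lost without any library other than iff-1 RNAi 15C replicate 3 (0.0584 to 0.154), and that of npp-1 without any other than EV 20C replicate 1 (0.0613 to 0.143). Calls of npp-8 and npp-11 were gained without iff-1 RNAi 15C replicate 3 (adjusted p = 0.0151 and 0.0275), and of npp-6 and npp-22 without EV 20C replicate 1 (0.00850 and 0.0280). With the length trend removed, calls higher in iff-1 RNAi 15C were gained for ima-3, npp-2 and npp-7 (adjusted p = 0.0269, 0.0315 and 0.00512). The lower calls of npp-1, ran-3, npp-16 and ima-2 were then lost (0.0709, 0.0706, 0.197 and 0.483).

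All members lie on autosomes. In WBcel235, 13 lie on chromosome I, 8 on II, 8 on III, 7 on IV and 3 on V. Chromosome I holds 33.3% of the members and 20.1% of the tested genes, and V holds 7.69% and 15.6%. Chromosomes II, III and IV hold 20.5%, 20.5% and 17.9% of the members and 17.2%, 19.2% and 16.9% of the tested genes. On the X chromosome lie 0 of 39 members and 915 of the 8572 tested genes, or 10.7%. Of the members, 3 pairs lie within 10000 bases of each other, each pair on 1 strand. How often other genes lie so close was not tested. The gap between npp-15 and ran-2 is 479 bases with no coding gene between, and under iff-1 RNAi their log2 fold changes were -0.25 and -0.08. The genes imb-3 and xpo-2 are 3559 bases apart, again with no coding gene between. In EV 20C against EV 15C they differed by -0.11 and 0.17, and in iff-1 RNAi 15C against EV 15C by 0.06 and -0.09. The third pair is npp-27 and xpo-3, 6441 bases apart with 2 coding genes between, at 0.23 and -0.02 under iff-1 RNAi. Where exons of another gene overlap on the other strand, as for 153 bases of xpo-1, 95 of ran-1 and 76 of imb-1, the values are uncertain to that extent, because the library kit marks strand but whether counting used it is not given in the sources used here.

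Genes that work beside the pore are given for comparison, and their counts stand beside the shares of all tested genes. Those shares were 16% higher and 15.0% lower under iff-1 RNAi, 19.3% higher and 8.69% lower at 20°C, and 20.5% higher and 28.4% lower between iff-1 RNAi 15C and EV 20C. Of 17 tested genes of the nuclear envelope and lamina, 5 rose and 3 fell under iff-1 RNAi, with a median of 0.03, and 5 rose and 2 fell at 20°C, with a median of 0.06. The inner membrane gene lem-2 averaged 79.5 ± 1.51 FPKM in iff-1 RNAi 15C, 85.5 ± 1.92 in EV 20C and 65.5 ± 3.97 in EV 15C, and was called against EV 15C in both (log2 0.28 and 0.38). Under iff-1 RNAi nemp-1 rose (0.19) and zyg-12, whose product ties nuclei to centrosomes, fell (-0.23). At 20°C lem-4 (0.21) and samp-1 (0.21) rose. Between iff-1 RNAi 15C and EV 20C the SUN protein gene unc-84 was lower (-0.72), as was lem-4 (-0.31). The single lamin gene lmn-1 averaged 225 ± 3.93 FPKM in iff-1 RNAi 15C, 217 ± 10.1 in EV 20C and 232 ± 3.39 in EV 15C and was not called (adjusted p = 0.361 and 0.0731 against EV 15C).

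Of 18 mRNA export genes, 2 rose and 2 fell under iff-1 RNAi, and 4 rose and 2 fell at 20°C, with medians of -0.01 and 0.04. The largest changes at 20°C were in 2 of the 3 ALY adaptors, which join export receptors to mRNA. Of these, aly-1 averaged 30.0 ± 1.47 FPKM in iff-1 RNAi 15C, 42.7 ± 3.23 in EV 20C and 25.3 ± 2.04 in EV 15C (log2 0.73 at 20°C, adjusted p = 7.39e-04). The related aly-2, with which reads may be shared in an unstated way, averaged 501 ± 19.1 FPKM in iff-1 RNAi 15C, 664 ± 17.6 in EV 20C and 534 ± 18.7 in EV 15C (log2 0.31 at 20°C, adjusted p = 0.00132). The third such gene, aly-3, was not called (log2 0.01, adjusted p = 0.865). The proteasome lid gene dss-1, whose product also joins an export complex, fell at 20°C (-0.17). Under iff-1 RNAi the helicase gene hel-1 fell (-0.20), as did thoc-3 (-0.12), and thoc-7 rose (0.29). Of 9 genes of the SUMO pathway, whose enzymes act at pores in other eukaryotes, 3 rose and 1 fell under iff-1 RNAi, and 1 rose and 1 fell at 20°C. The conjugating enzyme gene ubc-9 (0.13), the protease gene ulp-1 (0.16) and the ligase gene gei-17 (0.19) were higher under iff-1 RNAi, and smo-1, which encodes SUMO, was higher at 20°C (0.14) while the protease gene ulp-2 was lower (-0.14). Between iff-1 RNAi 15C and EV 20C, 4 envelope genes were higher, nemp-1 (0.19) among them, and 4 lower. Of the mRNA export genes 3 were higher and 6 lower, with aly-1 (-0.49), aly-2 (-0.41) and thoc-3 (-0.26) on the lower side, and of the SUMO genes 1 was called, ulp-1, which was higher (0.18).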

How the data were processed

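The authors deposited 1 table of FPKM for 46245 genes and 9 libraries, made from poly-A RNA with a stranded kit and paired-end reads of 75 nt, per the labels' protocols. The submitters' processing notes list CASAVA and Cufflinks without versions. Which aligner, genome build and annotation were used, and whether strand was, is not given in the sources used here. FPKM holds no counts, so depth is an estimate from the median of low values of FPKM times length within a window set alike for all libraries. Fold changes were computed on log2(FPKM + 1), a scale that understates changes of low genes, and tested with limma 3.58.1 (variance trend, all 9 libraries, 6 residual degrees of freedom, two-sided, Benjamini-Hochberg adjusted p under 0.05 over 8572 genes with a mean of at least 1 FPKM) in R 4.3.3. The fitting script was tested on simulated data. Tables and plots were made with Python 3.11.15, pandas 2.3.3 and matplotlib 3.10.9. Positions and exonic lengths are from the Ensembl annotation of WBcel235.

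The members, pathway lists and markers were chosen with earlier results of these data known. Per-library values are given for up to 6 called members of smallest adjusted p in each comparison with EV 15C, the 4 between iff-1 RNAi 15C and EV 20C, the 3 highest and 3 lowest members, all ima-, xpo- and ran- genes and imb-1, with others added where a result turned on them. Of other lists, up to 3 called genes of smallest adjusted p per comparison are named, and mel-28 and lmn-1. Alternatives were pseudocounts of 0.1 and 0.5, no filter, 3 other scalings, the compared groups alone, the replicate number as a block, each library left out and, chosen after seeing the data, removal of a trend with exonic length. Libraries with the same replicate number did not deviate together, so the numbers were not used to pair samples. No sequences are printed.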

Additional observations from a re-analysis of the deposited data

How the results depend on the processing

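Pseudocounts of 0.1 and 0.5 moved no count of called members past 1.5 times. At 20°C against 15°C, members called lower numbered 0 with no filter, with median ratio scaling and scaled without the 10 highest genes, 4 with quantile normalization and 5 with the length trend removed, and members called higher 2 with quantile normalization and 2 with the length trend removed. Their median log2 fold change was -0.0066 with quantile normalization, 0.0713 without the 10 highest genes and 0.0055 with the length trend removed. For iff-1 RNAi 15C against EV 15C, members called lower numbered 4 with no filter, 12 with median ratio scaling and 4 without the 10 highest genes. Members called higher numbered 1 with either of these scalings and 6 with the length trend removed. The median was -0.0808 with median ratio scaling. For iff-1 RNAi 15C against EV 20C, members called higher numbered 3 with median ratio scaling, 8 with quantile normalization, 0 without the 10 highest genes and 8 with the length trend removed. Members called lower there numbered 15 with median ratio scaling, 6 with quantile normalization, 6 in the compared groups alone and 6 with the length trend removed. The median there was -0.0578 with median ratio scaling, 0.0153 with quantile normalization, -0.0716 without the 10 highest genes and 0.0161 with the length trend removed. The median in that comparison was -0.0236 in the FPKM as deposited. Of members called before or after quantile normalization, signs turned there for ima-2 (0.0366, adjusted p = 0.343) and ran-1 (0.12, adjusted p = 0.0251), the second not called before. Sign changes of members called in neither case are not listed. The causes were not tested.

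With the replicate block, members called lower at 20°C numbered 2, imb-3 (adjusted p = 0.0338) and npp-14 (0.0370), and members called higher under iff-1 RNAi 15C against EV 15C numbered 2. Calls lost with the block were that of ima-3 at 20°C (0.0651), those of npp-6 (0.0509), npp-12 (0.0702), npp-19 (0.0705) and xpo-2 (0.0573) for iff-1 RNAi 15C against EV 15C, and those of ima-2 (0.0508) and npp-1 (0.0711) for iff-1 RNAi 15C against EV 20C, where calls of npp-22 (0.0257) and npp-8 (0.0274) were gained. Same-numbered libraries correlated in their deviations by -0.19 to 0.0817, so the numbers may share nothing but a name.

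With each library left out, 1514 to 2518 genes were called at 20°C against 15°C, 1798 to 3076 for iff-1 RNAi 15C against EV 15C and 3389 to 4118 for iff-1 RNAi 15C against EV 20C. Members called higher numbered 2 to 5, 2 to 4 and 5 to 6 in these comparisons, and members called lower 0 to 1, 4 to 10 and 5 to 11. The members' medians ranged from 0.0132 to 0.0475, from -0.0406 to 0.0025 and from -0.0482 to -0.0221. Counting error at the estimated depth was small for genes of this level. What can be called is limited by 3 libraries per group.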

Other observations

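The low gene npp-26, which carries a pore gene name but was too low to be tested, had 0.956, 1.15 and 0.922 FPKM in iff-1 RNAi 15C, 0.323, 0.281 and 0.429 FPKM in EV 20C and 0.512, 0.514 and 0.382 FPKM in EV 15C. The iff-1 RNAi 15C libraries were the highest and did not overlap with the others. Of all tested genes, 49.7% did not overlap between iff-1 RNAi 15C and EV 15C, and 56.5% between iff-1 RNAi 15C and EV 20C. The counting error given for the members does not cover a gene this low.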
